A study of Mus musculus with 30 samples.

Results

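Hematopoietic stem cells (HSC) of old B6 mice joined to a young partner were compared with those of old B6 mice that were never joined. The joined group, labelled OHETB6 (old heterochronic, B6), has 4 libraries, and the unjoined group, labelled OB6CNT (old control, B6), has 3, so 7 of the 30 samples in the series enter the comparison. Members were chosen by group, and each column of the count table was matched to a sample by the library code in the sample's title. The series measured RNA of sorted HSC in young and old mice, unjoined or joined in parabiosis, an operation that links the circulation of a pair of animals. All mice used here were male. Mice of OHETB6 and OB6CNT were 22 months old at the procedure. A further 2 groups of the same strain served as reference: OISOB6 (5 libraries), old mice aged 22 months and joined to an old partner, and YB6CNT (3 libraries), unjoined young mice of 8 to 12 weeks. The labels name no transgene or drug, do not say whether unjoined mice had a sham operation, do not give the surface markers of the sort, and give no record of which mice formed a pair. All young heterochronic samples of the series are of the BoyJ strain.

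HSC sit mostly at rest in the marrow and make all blood lineages. With age they become more numerous, lean towards platelets and myeloid cells, and raise a set of surface genes such as Selp. Immediate early genes, among them Fos, Jun and Egr1, are transcribed within minutes of a stimulus without new protein synthesis, and they also respond to tissue handling and cell isolation. Histone genes of the replication-dependent clusters are transcribed mainly while DNA is copied, and genes of mitosis such as Mki67 mark cycling cells.

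The main finding was a block of immediate early and stress genes that was lower in OHETB6 than in OB6CNT. Of 14142 genes tested, 20 were called at an adjusted p under 0.05, where called means a Benjamini-Hochberg adjusted p from edgeR's quasi-likelihood test. Of these, 16 fell (0.113% of genes tested) and 4 rose (0.0283%). Of the 16 that fell, 13 belong to a list of 29 immediate early and stress genes. The 4 that rose were the histone genes Hist1h4d, Hist1h2bl and Hist1h4k and the ribosomal pseudogene Rps12-ps3. DESeq2 on the same libraries called 108 higher and 51 lower, all 20 among them, and leaving out 1 library gave 6 to 30 calls (6 without OB6CNT 2 or OB6CNT 3). Over all genes the median log2 fold change (OHETB6 minus OB6CNT) was 0.04, and 53.9% of values were positive. In bulk RNA of this kind, fewer cells of a type and less RNA per cell cannot be told apart.

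Before the results, the labels of some libraries need a caution. For OHETB6 1 and OHETB6 2 the title and the description name different columns of the count table. The same holds for 8 other libraries of the series, among them OISOB6 1, OISOB6 2 and YB6CNT 2 of the reference groups. The column used for OHETB6 1 is described as a young unjoined library of the BoyJ strain, and that used for OHETB6 2 as an old isochronic B6 library. Ctse, a gene that differed between the strains, was at 25.9 to 158 CPM (estimated counts scaled to library size) in the 12 B6 libraries whose labels meet and at 560 to 843 CPM in the 7 BoyJ libraries. Selp, higher with age, was at 164 to 359 CPM in the 10 old libraries and at 10.4 to 47.7 CPM in the 9 young ones. OHETB6 1 held 58.1 CPM of Ctse and 192 CPM of Selp, levels of the old B6 libraries. For OHETB6 2 both labels say old B6, so these genes cannot tell them apart. OISOB6 1 is described as BoyJ young unjoined and held 51.4 CPM of Ctse and 248 CPM of Selp, levels of old B6. YB6CNT 2 is described as an old B6 library and held 19.3 CPM of Selp, a young level. OISOB6 2 is described as OHETB6, and these genes cannot tell that apart. The column titled YBJCNT 2 (young unjoined BoyJ) is also described as OHETB6. It held 778 CPM of Ctse and 25.2 CPM of Selp, levels of young BoyJ. Results are therefore also given for the 5 libraries whose labels meet (OHETB6 3 and 4 and the 3 OB6CNT libraries). There 6 genes were called, all lower in OHETB6: Jun, Klf4, Zfp36, Klf6, Egr1 and Ppp1r15a.

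The libraries held 12495004 to 27130647 estimated counts. Across genes, log2 CPM correlated at 0.959 to 0.976 between the 3 OB6CNT libraries and at 0.848 to 0.911 between the 4 OHETB6 libraries, so the joined group was the more variable. No pair of libraries was a repeat within sampling noise. The stem cell markers Kit, Ly6a, Slamf1, Procr, Hlf and Mecom were detected in all 7 libraries.

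Promoters of some of the genes that fell are shown because those genes moved together. The genes shown were picked among those that hold the motif marked. Each stretch holds the 150 bases before the RefSeq start (GRCm38.p6), and capitals mark TGACGT on either strand, the core of the cAMP response element (CRE). This motif was chosen after the sequences were seen. It was present in the windows (250 bases before to 50 after the start) of 7 of the 13 genes that fell and could be matched, and in 7.51% of all 32851 windows of that length. The genes were Atf3, Btg1, Btg2, Dusp1, Fos, Ppp1r15a and Ptgs2, so Jun, Klf4, Klf6 and Zfp36 are not among them. Of the 58 histone genes that could be matched, whose values were higher, 14 held it (24.1%). A gene was counted where any of its windows held the motif, whereas 7.51% is a share of single windows. The counts of genes and that share are therefore unlike measures. In Dusp1 and Ppp1r15a a pair of overlapping matches forms the full palindrome. Other motifs were also searched for in the 13 genes. The CArG box (CCWWWWWWGG, where W is A or T) was held by 1, Zfp36, and by 1.63% of all windows. CCAAT was held by 5 of the 13 and by 37.4% of all windows, and ATTTGCAT by 0 and by 1.74%. A match is a description of the letters, not a measured site. The stretches are Fos at chr12:85473740-85473889 (plus strand), Atf3 at chr1:191183334-191183483 (minus strand), Dusp1 at chr17:26508473-26508622 (minus strand) and Ppp1r15a at chr7:45526269-45526418 (minus strand).
Fos: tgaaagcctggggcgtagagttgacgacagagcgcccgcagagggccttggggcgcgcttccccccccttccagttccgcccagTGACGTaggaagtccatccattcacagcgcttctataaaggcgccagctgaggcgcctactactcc
Atf3: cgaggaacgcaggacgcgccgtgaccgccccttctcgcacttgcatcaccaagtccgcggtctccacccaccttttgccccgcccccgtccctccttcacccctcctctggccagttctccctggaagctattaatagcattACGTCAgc
Dusp1: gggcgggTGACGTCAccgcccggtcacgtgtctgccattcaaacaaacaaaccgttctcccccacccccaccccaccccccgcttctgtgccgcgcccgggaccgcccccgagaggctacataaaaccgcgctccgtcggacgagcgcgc
Ppp1r15a: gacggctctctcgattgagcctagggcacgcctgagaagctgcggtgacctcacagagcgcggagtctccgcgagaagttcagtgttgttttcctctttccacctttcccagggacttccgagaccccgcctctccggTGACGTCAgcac

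Among the AP-1 genes, whose proteins pair into a transcription factor, Jun (GRCm38 chr4:95049034-95052222, minus strand) gave the smallest p of all genes. Jun stood at 872, 939 and 855 CPM in OB6CNT and at 141, 197, 198 and 164 CPM in OHETB6. Every OHETB6 library lay below every OB6CNT library by more than 4-fold. The group means were 175 ± 27.8 CPM (SD, n = 4) and 889 ± 44.4 CPM (SD, n = 3), and the log2 fold change was -2.35 ± 0.14 (SE, adjusted p = 4.67e-05). Fos was at 647, 623 and 745 CPM in OB6CNT and at 32.0, 74.8, 52.6 and 147 CPM in OHETB6. It fell by 3.13 on the log2 scale (SE 0.40, adjusted p = 0.0140), and OHETB6 4 was the highest of its group. Fosb was at 102 to 146 CPM in OB6CNT and 8.14 to 37.1 CPM in OHETB6 (log2 fold change -2.74, adjusted p = 0.0344). Junb (-1.73, adjusted p = 0.0665) did not pass the threshold, although its OHETB6 libraries (28.3 to 74.5 CPM) lay below those of OB6CNT (142 to 208 CPM).

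Among the called genes of the list, the transcription factors Atf3 and Klf4 had the most negative values. Klf4, a zinc finger factor, was at 40.5, 34.3 and 41.5 CPM in OB6CNT and at 2.15, 1.5, 2.16 and 1.52 CPM in OHETB6. The groups lay far apart and each was tight, and Klf4 differed by -4.40 ± 0.34 on the log2 scale (SE, adjusted p = 0.000223). Its relative Klf6 was at 337 to 484 CPM in OB6CNT and 75.7 to 105 CPM in OHETB6 (-2.14, adjusted p = 0.000223). Atf3, a stress-induced factor of the CREB family, was at 15.2, 6.60 and 13.1 CPM in OB6CNT and at 0, 0.0788, 0.0919 and 0.117 CPM in OHETB6. Its OHETB6 values rest on a few counts a library, and the 0 in OHETB6 1 allows up to 0.134 CPM (3 counts, counting error only), so the fitted value of -7.23 on the log2 scale (SE 0.85, adjusted p = 0.00759) is imprecise. Egr1, a zinc finger factor, was at 788 to 1120 CPM in OB6CNT and at 92.0 to 282 CPM in OHETB6 (-2.21, adjusted p = 0.0162). Nr4a2, an orphan nuclear receptor, was at 49.4 to 77.4 CPM against 1.28 to 8.32 CPM (-3.51, adjusted p = 0.0270). Its relative Nr4a1 had a value of -2.91 that was not called (adjusted p = 0.197). Ccn1, which encodes a matricellular protein, had a value of -4.24 and was not called (adjusted p = 0.202).

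The genes that fell also included brakes on the same signals. Zfp36, which promotes decay of short-lived mRNAs, was at 377, 428 and 445 CPM in OB6CNT and at 59.4, 86.5, 89.6 and 54.6 CPM in OHETB6. No library of one group came near the other, and the log2 fold change was -2.53 ± 0.19 (SE, adjusted p = 0.000223). Dusp1, a phosphatase that switches off MAP kinases, was at 298 to 320 CPM in OB6CNT and 41.3 to 111 CPM in OHETB6 (-2.18, adjusted p = 0.0143). Ppp1r15a, which restores translation after stress, was at 180 to 231 CPM and 45.9 to 71.1 CPM (-1.73, adjusted p = 0.00385). Nfkbiz, an atypical regulator of NF-kB, fell by 2.09 on the log2 scale (adjusted p = 0.00258). Of the 14 tested genes of an NF-kB feedback and target list it was the 1 called, and 10 of the 14 values were negative with a median of -0.33. The anti-proliferative genes Btg2 (-2.08, adjusted p = 0.0158) and Btg1 (-1.06, adjusted p = 0.0158), Ier2 (-1.69, adjusted p = 0.0169) and the prostaglandin synthase Ptgs2 (-3.07, adjusted p = 0.0362) complete the 16.

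Within the list of 29, 27 values were negative and the median was -2.18. For 23 of the 29 every OHETB6 library was below every OB6CNT library, against 4.66% of all genes tested, and 22 had an unadjusted p under 0.05 in that direction, against 2.45%. This list, like the others, was chosen with earlier results of these data known, so such shares describe it and do not test it. The 2 positive values were Myc, at 0.45, and Fosl2, at 0.19, and neither was called. The summed level of the list was 4892, 5044 and 5418 CPM in OB6CNT and 1008, 1566, 1412 and 1626 CPM in OHETB6. The spread within each group was small beside the gap between them. DESeq2 called 20 of the 29 lower, against 0.361% of all genes. In the 5 libraries whose labels meet, 28 of the 29 values were negative with a median of -2.02, and 6 were called.

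**Figure D1:**
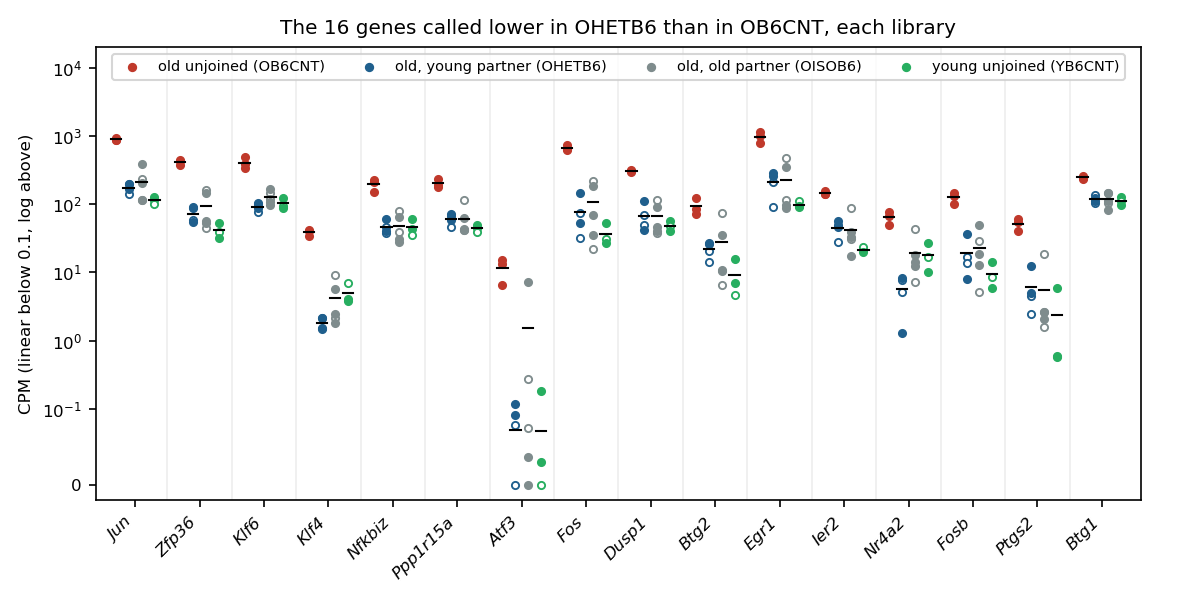
Levels (CPM, on an axis linear below 0.1 and logarithmic above) of the 16 genes called lower in OHETB6, by library, for OB6CNT, OHETB6, OISOB6 and YB6CNT. Each point is a library, open where title and description name different columns, and bars are means: in all 16 genes the 3 OB6CNT libraries lie above the 4 OHETB6 libraries.

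The 3 OB6CNT libraries were also apart from most of the series. On a scale common to all 29 columns, the list summed to 4812 to 5340 CPM in OB6CNT and to 648 to 2355 CPM in 25 of the other 26 libraries. The exception was OHETB6X 1, at 5310 CPM. OHETB6X is HSC of old B6 mice (22 months) that lodged in the marrow of their young partner. OHETB6X 1 is described as a young heterochronic BoyJ library and was the shallowest of the 29, at 7659468 estimated counts. It held 248 CPM of Selp, a level of old libraries. Its Ctse, at 174 CPM, was just above the B6 libraries whose labels meet and far below the BoyJ ones (560 to 843 CPM). The only other old unjoined library, OBJCNT 1 of the BoyJ strain (21 months), was at 1104 CPM. Within B6, the list summed to 968 to 2384 CPM in OISOB6 and to 878 to 1108 CPM in YB6CNT. The OHETB6 libraries thus lay within the range of the old mice with an old partner. The immediate early levels of OB6CNT move with every difference between OHETB6 and OB6CNT described here, and their part in those differences was not tested.

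Histone genes were higher in OHETB6. Hist1h4d (GRCm38 chr13:23581598-23582735, plus strand), which encodes H4, was at 139, 263 and 224 CPM in OB6CNT and at 876, 847, 527 and 680 CPM in OHETB6. The groups did not overlap, and the log2 fold change was 1.81 ± 0.24 (SE, adjusted p = 0.0143). Hist1h2bl (chr13:21715763-21716143, minus strand), which encodes H2B, was at 32.3, 56.4 and 37.2 CPM against 149, 141, 123 and 229 CPM (1.93, adjusted p = 0.0175). Hist1h4k was at 26.4 to 41.9 CPM in OB6CNT and 79.3 to 135 CPM in OHETB6 (1.62, adjusted p = 0.0344). Copies of these genes are nearly identical, so the split of reads between copies is uncertain and the family sum is given as well.

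Of 64 histone genes tested, 3 rose and 58 had positive values, with a median of 1.51. For 41 the unadjusted p was under 0.05 with a higher level in OHETB6, against 4.54% of all genes, and for 31 the groups did not overlap with OHETB6 higher, against 4.41%. DESeq2 called 26 higher, against 0.764% of all genes. The family summed to 883, 1281 and 1067 CPM in OB6CNT and to 3059, 2761, 1920 and 3424 CPM in OHETB6, so OHETB6 3 was the lowest of its group and still above all OB6CNT libraries. Hist1h3b (1.73, adjusted p = 0.0946), Hist2h2ac (1.67, adjusted p = 0.0946), Hist1h2ak (1.91, adjusted p = 0.134) and Hist1h2bf (2.93, adjusted p = 0.153) were not called. The few copies near or below 0 included Hist1h1c (-0.03) and Hist1h2bc (-0.81). The 3 calls rested on the full set of libraries: none was called in the 5 libraries whose labels meet, where 55 of 64 values were positive with a median of 1.40, and none without OHETB6 1, without OB6CNT 2 or without OB6CNT 3.

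The upstream stretch of Hist1h2bl (RefSeq H2bc13, chr13:21716184-21716333, minus strand) is shown with the CCAAT box, a motif common in promoters of histone and cell cycle genes. Capitals mark CCAAT on either strand, which occurs 4 times. The stretch also holds TGACGT, the motif marked above in genes that fell, and here it is left in small letters.
Hist1h2bl: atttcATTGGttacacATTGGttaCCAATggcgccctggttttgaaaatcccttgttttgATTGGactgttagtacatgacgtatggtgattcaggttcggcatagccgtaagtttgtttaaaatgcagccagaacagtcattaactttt
Of the 58 histone genes that could be matched, 48 held CCAAT in any of their windows, and 12 held the octamer ATTTGCAT. Of all single windows, an unlike measure, 37.4% held CCAAT and 1.74% held the octamer.

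**Figure D2:**
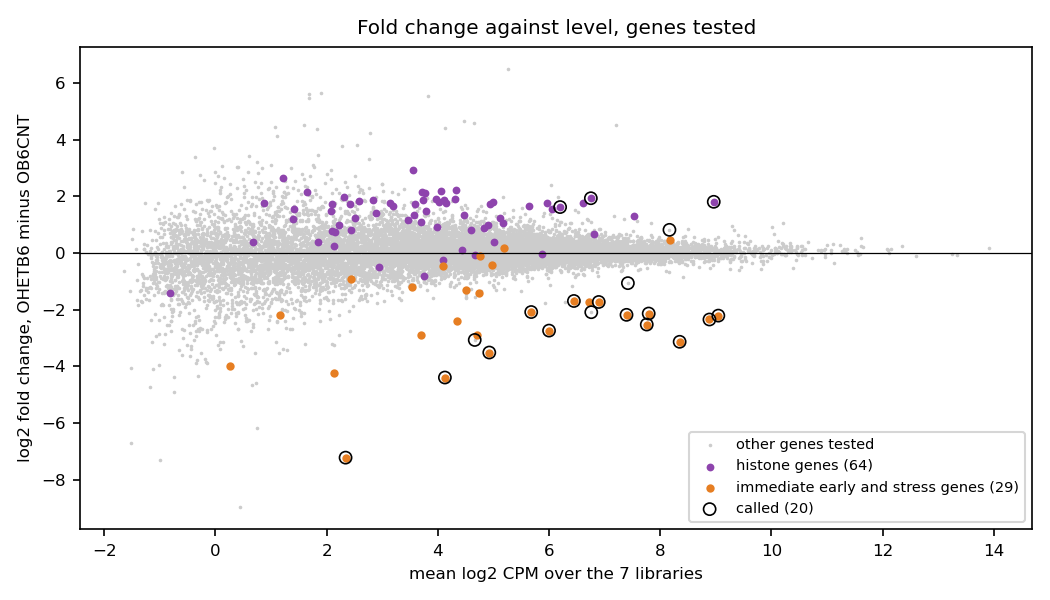
Log2 fold change (OHETB6 minus OB6CNT) against mean log2 CPM for the 14142 genes tested, each point a gene. The 29 immediate early and stress genes and the 64 histone genes are coloured and the 20 called genes are circled: the first list lies mostly below 0 (median -2.18) and the second mostly above (median 1.51).

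Genes of mitosis had higher values in OHETB6, but none was called in the 7 libraries. All 25 tested genes of the list were positive with a median of 1.07. Of the 25, 23 had an unadjusted p under 0.05, against 4.54% of all genes in that direction, and for 13 the groups did not overlap, against 4.41%. DESeq2 on the same libraries called 13 of the 25 higher, against 0.764% of all genes. Mki67, a nuclear protein of cycling cells, was at 765, 872 and 579 CPM in OB6CNT and at 1904, 1533, 943 and 1811 CPM in OHETB6 (1.06, adjusted p = 0.197). Top2a (0.95, adjusted p = 0.295) and Kif11 (1.14, adjusted p = 0.349) gave like values. The list summed to 2246, 2586 and 1679 CPM in OB6CNT and 5650, 4256, 2727 and 5245 CPM in OHETB6. OHETB6 3 lay only slightly above the highest OB6CNT library. OISOB6 was at 3292 to 5107 CPM and YB6CNT at 4068 to 4870 CPM, so both were above OB6CNT too. When all 15 B6 libraries were fitted together, 4 genes of the list were called higher, against 0.226% of all genes, Mki67 among them (adjusted p = 0.0341).

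Of 27 genes that copy DNA, 25 had positive values and none was called. DESeq2 called 1, while of all genes it called 0.764% higher and 0.361% lower. The median was 0.59, and 7 had an unadjusted p under 0.05, against 4.54% of all genes, Tyms among them (0.79). The most abundant members gave small values, 0.24 for Pcna and 0.22 for Mcm6. The list summed to 3029 and 2931 CPM in OHETB6 1 and 4, and to 1874 and 1977 CPM in OHETB6 2 and 3, against 1697 to 1886 CPM in OB6CNT. OHETB6 1 and 4 were well above OB6CNT, and the other 2 were near its range. Of cell cycle regulators, Cdk6, a kinase of G1, was at 603 to 780 CPM in OB6CNT and 950 to 1840 CPM in OHETB6 (0.91, adjusted p = 0.202), and Ccnd2 had a value of -0.43 (adjusted p = 0.550). None of the 18 genes of that list was called.

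**Figure D3:**
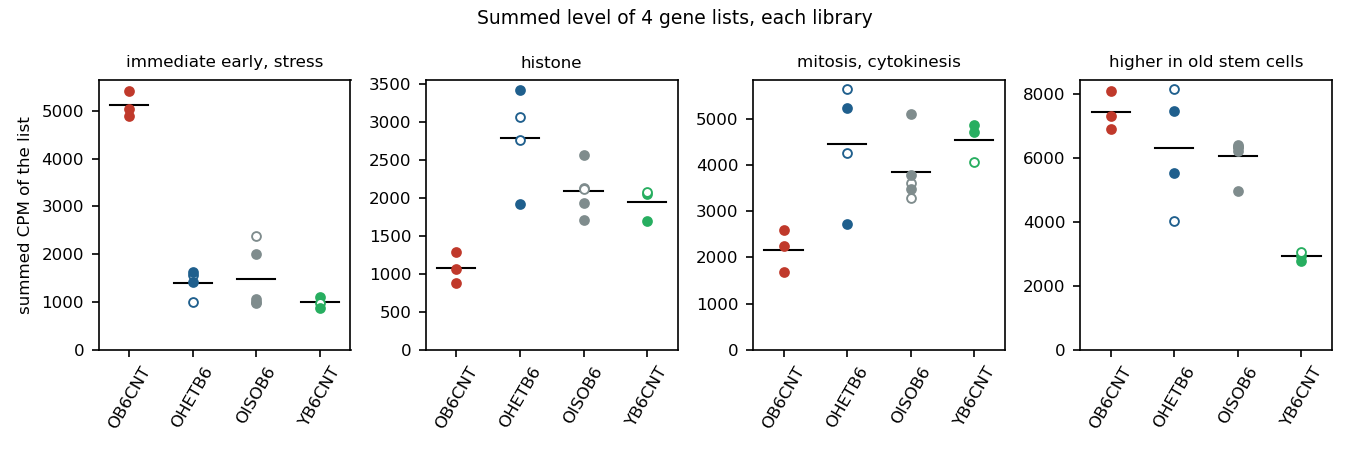
Summed CPM of 4 gene lists in each library of OB6CNT, OHETB6, OISOB6 and YB6CNT, with bars for means and open points where title and description name different columns. OB6CNT stands above the other groups in immediate early genes (4892 to 5418 CPM) and below them in histone genes (883 to 1281 CPM), and the genes higher in old stem cells range from 4022 to 8153 CPM in OHETB6.

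A young partner raises the question of whether genes that change with age move towards their young level. Of 34 tested genes higher in old HSC, 2 fell, and both, Zfp36 and Klf6, are also in the immediate early list. The median of the 34 was -0.15 with 25 negative values. In OISOB6 minus OB6CNT the median of this list was -0.25. Selp, a platelet and endothelial adhesion molecule, was at 167, 239 and 260 CPM in OB6CNT and at 196, 351, 305 and 226 CPM in OHETB6 (0.28, adjusted p = 0.867). Young unjoined HSC held 19.5 to 32.0 CPM, so all joined old libraries kept Selp above the young level. Vwf, the clotting factor that marks platelet-biased HSC, was at 178, 182 and 242 CPM in OB6CNT and 132, 115, 141 and 125 CPM in OHETB6. These groups did not overlap, but the difference (-0.65, adjusted p = 0.263) was not called, and YB6CNT was at 22.5 to 52.0 CPM. With an old partner Vwf was at 97.9 to 159 CPM, and the value of OISOB6 minus OB6CNT was -0.66. Cldn12 (-0.80, adjusted p = 0.463) and Sbspon (-1.60, adjusted p = 0.621) were not called either. Slamf1, the CD150 receptor, was at 74.5 to 147 CPM against 122 to 145 CPM (-0.42, adjusted p = 0.794).

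The 4 joined libraries differed widely in this list. The summed level was 4022 CPM in OHETB6 1, 5504 CPM in OHETB6 4, 7457 CPM in OHETB6 3 and 8153 CPM in OHETB6 2. OB6CNT was at 6895 to 8065 CPM, so OHETB6 2 and 3 lay at the unjoined level and OHETB6 1 and 4 below it. YB6CNT, at 2758 to 3053 CPM, was below all of them. OHETB6 1 is one of the libraries whose labels conflict. OISOB6 was at 4953 to 6397 CPM.

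Of 14 tested genes lower in old HSC, none was called, 11 had positive values and the median was 0.42. With an old partner (OISOB6 minus OB6CNT) the median of the list was 0.52 and none was called. For OHETB6 minus OISOB6 the median was 0.04. Cd34, a sialomucin that marks progenitors, was at 52.1 to 60.6 CPM in OB6CNT, 74.2 to 124 CPM in OHETB6 and 119 to 122 CPM in YB6CNT (0.86, adjusted p = 0.321). Flt3, a cytokine receptor of multipotent progenitors, was at 9.92 to 13.5 CPM, 21.1 to 31.4 CPM and 31.7 to 39.1 CPM in the same groups (1.14, adjusted p = 0.401). Tent5a (2.16, adjusted p = 0.288) and Ect2, a cytokinesis gene that is also in the mitosis list (1.52, adjusted p = 0.259), had larger values. In OISOB6 minus OB6CNT the values were 0.58 for Cd34, 0.63 for Flt3, 2.02 for Tent5a and 1.00 for Ect2. Of the 14 genes, these 4 had every OHETB6 library above every OB6CNT library (4.41% of all genes), and 2 had every OHETB6 library below (4.66%). DESeq2 called 4 of the 14 higher, against 0.764% of all genes. Flt3, Tent5a and Ect2 were chosen for mention after their values were seen. In the authors' deposited table of old unjoined against old heterochronic HSC, Flt3, Tent5a and Ect2 had adjusted p-values of 0.0174, 0.000855 and 0.000282. Cd34 did not pass in the authors' deposited table (adjusted p = 0.120). Nor did Selp (0.845), Vwf (0.522), Cldn12 (0.842), Sbspon (0.440) or Slamf1 (0.733) in the authors' deposited table.

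**Figure D4:**
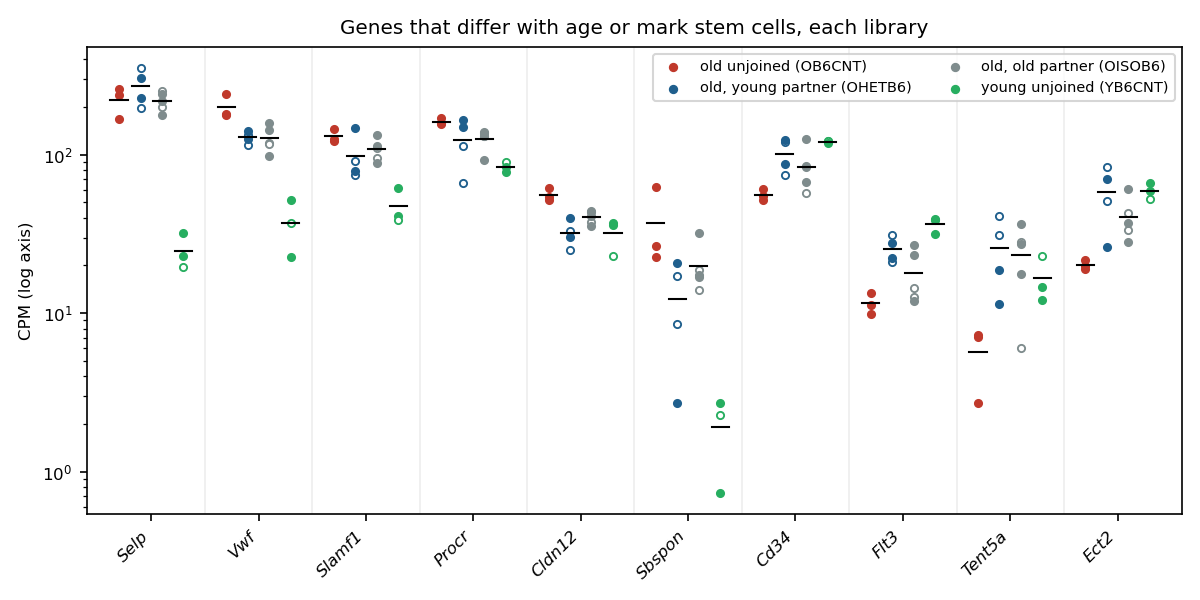
Levels (CPM, log axis) of genes that differ with age or mark stem cells, by library, for OB6CNT, OHETB6, OISOB6 and YB6CNT, with bars for means and open points where title and description name different columns. Selp in OHETB6 (196 to 351 CPM) stays far above the young libraries (19.5 to 32.0 CPM), whereas Cd34 and Flt3 in OHETB6 lie between the OB6CNT and the YB6CNT levels or reach the latter.

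Stem cell identity genes did not differ by the test. None of 28 was called and the median was -0.10. Kit, the stem cell factor receptor, was at 713 to 861 CPM in OHETB6 and 808 to 896 CPM in OB6CNT (-0.07, adjusted p = 0.942), and the leukocyte antigen Ptprc at 432 to 530 CPM and 440 to 456 CPM (0.07, adjusted p = 0.942). Hlf, a transcription factor of HSC, was at 621 CPM in OHETB6 1 and at 1090 to 1126 CPM in the other 3 (-0.18, adjusted p = 0.905). Procr, the endothelial protein C receptor, was lowest in the same library, at 65.8 CPM against 114 to 165 CPM.

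Lineage genes were uneven between the joined libraries. Pf4, a platelet chemokine, was at 275, 61.2, 10.2 and 63.9 CPM in OHETB6 1 to 4 and at 19.1 to 19.6 CPM in OB6CNT (2.40, adjusted p = 0.550). OHETB6 3 was below OB6CNT and the other 3 above. Itga2b, the platelet integrin CD41, was at 35.8 to 78.6 CPM in OHETB6 and 25.8 to 28.5 CPM in OB6CNT (1.13, adjusted p = 0.295). Of 22 megakaryocyte and platelet genes none was called and 18 had positive values. Car1, a carbonic anhydrase of erythroid progenitors, was at 110, 13.4, 2.07 and 147 CPM in OHETB6 and 0.670 to 0.822 CPM in OB6CNT (6.50, adjusted p = 0.166). Mpo, the granule peroxidase of myeloid progenitors, was at 16.3, 43.7, 1.15 and 113 CPM against 1.47 to 2.14 CPM (4.60, adjusted p = 0.294). Both genes were above the OB6CNT level in YB6CNT too, Car1 at 17.6 to 143 CPM and Mpo at 3.23 to 39.3 CPM.

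Summed markers of platelets, granulocyte progenitors and erythroid cells were above OB6CNT in 3 or 4 of the OHETB6 libraries, and those of endothelium were below it in 3. The 5 neutrophil markers summed to 401 CPM in OHETB6 4, to 2.52 to 20.8 CPM in the other OHETB6 libraries and to 1.87 to 5.40 CPM in OB6CNT. Only OHETB6 1 and OHETB6 4 were above OB6CNT. The same markers summed to 24.5 to 532 CPM in OISOB6 and to 8.74 to 166 CPM in YB6CNT. OHETB6 4 held 109 CPM of S100a8 and 139 CPM of S100a9, the subunits of calprotectin. The other 3 OHETB6 libraries held 0.473 to 9.41 and 0.630 to 9.76 CPM. The 5 platelet markers summed to 97.4 to 391 CPM in OHETB6, highest in OHETB6 1, and to 71.3 to 82.1 CPM in OB6CNT, so all 4 joined libraries were above. They summed to 140 to 193 CPM in OISOB6 and to 67.8 to 93.4 CPM in YB6CNT. The 4 granulocyte progenitor markers summed to 86.8 to 224 CPM and 69.7 to 94.7 CPM, and the 6 erythroid markers to 16.9 to 34.4 CPM and 12.6 to 18.2 CPM. In each of these lists 3 of the 4 joined libraries were above OB6CNT. Prtn3, at 66.1 to 115 CPM in OHETB6 and 67.7 to 92.1 CPM in OB6CNT, weighed heavily in the granulocyte progenitor sum. OHETB6 3 was above through Prtn3 (115 CPM), with Mpo at 1.15 CPM and Elane at 0. The sum of OHETB6 1 lay within OB6CNT, although its Mpo (16.3 CPM) and Elane (4.40 CPM) were above OB6CNT (at most 2.14 and 0.447 CPM). The 4 endothelial markers summed to 68.0, 82.3, 121 and 90.5 CPM in OHETB6 and 118, 132 and 142 CPM in OB6CNT. Kdr, the VEGF receptor, was at 6.86 to 16.7 CPM against 26.7 to 50.4 CPM, with no overlap, while Cdh5, which defines endothelium, was at 0 to 0.138 CPM in all 7. OISOB6 held 9.99 to 20.7 CPM of Kdr and YB6CNT 3.32 to 6.73 CPM, so both were below OB6CNT too. The B cell markers Cd79a and Ms4a1 were at 0 to 0.394 CPM in all 7 libraries, while Cd79b was at 11.4 to 31.1 CPM in OHETB6 and 14.3 to 18.7 CPM in OB6CNT. Sums of T cell markers (1.73 to 7.39 CPM), macrophage markers (2.53 to 8.44 CPM), stroma markers (4.09 to 31.4 CPM) and plasma cell markers (0 to 24.4 CPM) overlapped between the groups. The part of these cells in the values given here was not tested. Without OHETB6 4, 18 genes fell and 2 rose. The immediate early list then had 14 called genes and a median of -2.22. The histone list had a median of 1.26 and kept Hist1h4d and Hist1h2bl, whereas Hist1h4k and Rps12-ps3 were not called.

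Mapk12, the p38-gamma kinase, was high in 1 library, at 992 CPM in OHETB6 4 and 3.78, 11.3 and 12.8 CPM in the other 3, with 7.82 to 14.5 CPM in OB6CNT. The log2 fold change of 4.53 (adjusted p = 0.794) rests on that library and was -0.23 without it. Cdkn1a, the p21 inhibitor of the cell cycle, was at 45.7 and 36.4 CPM in OHETB6 2 and 4, and at 5.76 and 7.17 CPM in OHETB6 1 and 3, on either side of OB6CNT (7.50 to 14.9 CPM). Per1, a clock gene, ranged from 7.16 to 49.1 CPM in OHETB6 and from 28.9 to 54.4 CPM in OB6CNT (-0.97, adjusted p = 0.799). An extreme library was counted as far from the other 3 where the gap beside it, divided by the range of the group, passed Dixon's critical value for 4 libraries, which chance alone passes in about 5% of groups of 4, or 1.25% for each library. By this ratio on log2 CPM, 2.35% of the genes tested had OHETB6 4 apart, 1.62% had OHETB6 2, 1.22% had OHETB6 1 and 1.01% had OHETB6 3.

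**Figure D5:**
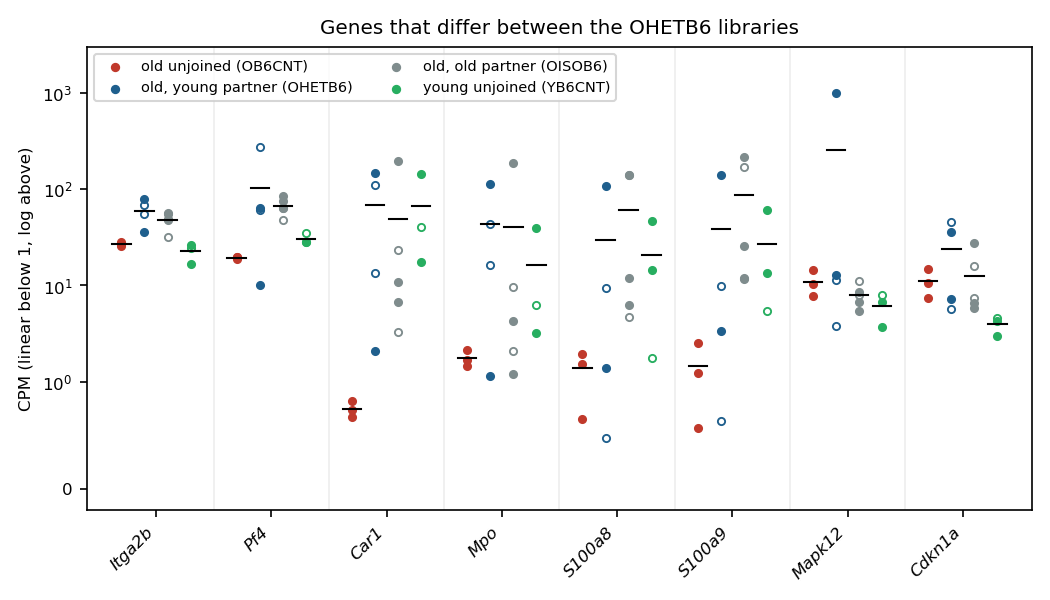
Levels (CPM, linear below 1 and logarithmic above) of lineage genes, Mapk12 and Cdkn1a in each library, with bars for means and open points where title and description name different columns. The OHETB6 points spread widely, as for Car1 (2.07 to 147 CPM), while the 3 OB6CNT libraries stay close together for the same gene (0.670 to 0.822 CPM).

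Several other programs showed no called gene. This held for 28 interferon response genes (median -0.02), 17 clock genes (-0.28), 13 glucocorticoid response genes (-0.06), 20 heat shock and chaperone genes (-0.06), 16 antigen presentation genes (-0.06), 27 homing and niche receptors (0.07), 22 glycolysis and hypoxia genes (0.11), 22 DNA methylation and polycomb genes (0.06), 16 GTPase and polarity genes (0.20) and 13 lymphoid priming genes (-0.09). Of 17 p53 targets 1 was called, Btg2, which is also in the immediate early list. Others in it were not called, such as Plk2 (-1.17, adjusted p = 0.242) and Bax (1.19, adjusted p = 0.668). Genes of protein synthesis and respiration leaned upwards by small amounts: 71 of 82 cytoplasmic ribosomal protein genes were positive with a median of 0.16, 69 of 80 nuclear oxidative phosphorylation genes with a median of 0.31, and 12 of 13 mitochondrially encoded genes with a median of 0.20. None of these was called. Rps12-ps3, the fourth gene that rose, was at 182 to 218 CPM in OB6CNT and 318 to 385 CPM in OHETB6 (0.82, adjusted p = 0.0344), and as a copy of a ribosomal protein gene its reads may belong to the parent gene.

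Old mice joined to an old partner were the reference for joining itself. OISOB6 minus OB6CNT shares the OB6CNT libraries with the main comparison, so the following values are set side by side and are not independent. In that comparison, fitted over 15 B6 libraries and 15063 genes, 12 genes fell (0.0797%) and 6 rose (0.0398%). Those that fell were Klf6, Klf4, Dusp1, Nfkbiz, Btg1, Ppp1r15a, Zfp36, Jun, Ier2, Mcl1, Ccnl1 and Ddx5, and those that rose were Hist1h4d, Hist1h4k, Hist1h2bl, Hist1h2ak, Hist1h3b and Rbm3. Jun had a log2 fold change of -2.08 there, Klf4 -3.18, Zfp36 -2.17 and Hist1h4d 1.37. The immediate early list had a median of -1.73, the histone list 1.16 and the mitosis list 0.78. Mcl1, a survival factor of the BCL2 family, was at 428 to 509 CPM in OB6CNT, 217 to 285 CPM in OISOB6 and 223 to 309 CPM in OHETB6, where the fit of 15 libraries called it too (-0.83, adjusted p = 0.0060) and that of 7 did not (adjusted p = 0.0621). Rbm3, an RNA-binding protein induced by cold, was at 475 to 557 CPM, 618 to 947 CPM and 727 to 865 CPM in these groups. In OHETB6 it was likewise called in the fit of 15 libraries (0.64, adjusted p = 0.0238) and not in that of 7 (adjusted p = 0.0675).

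The comparison of a young with an old partner, OHETB6 minus OISOB6, called 1 gene of 15063 (0.00664%), and 1391 had an unadjusted p under 0.05. This was Ext2, a heparan sulfate polymerase, at 31.6, 52.6, 47.9 and 41.6 CPM in OHETB6 and 101 to 245 CPM in OISOB6 (-1.98, adjusted p = 0.0475). OB6CNT was at 55.9 to 152 CPM. The call was lost in the libraries whose labels meet and with columns matched by description, and with 1 library left out it was kept only without OISOB6 5. The immediate early list had a median of -0.26 in this comparison, the histone list 0.35 and the mitosis list 0.26. Jun had a value of -0.26 (adjusted p = 0.795), Klf4 -1.22 (adjusted p = 0.441), Hist1h4d 0.44 (adjusted p = 0.526) and Selp 0.31 (adjusted p = 0.635). A difference between a young and an old partner was therefore not detected for these genes with 4 and 5 libraries, which does not show that the groups were alike. Young heterochronic samples of the series are all BoyJ, so the partner's strain may differ along with its age.

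In the authors' deposited table of old unjoined against old heterochronic HSC, 180 of 17329 genes had an adjusted p under 0.05, of which 104 were higher in the heterochronic group and 76 in the unjoined group. Which libraries entered that table is not given in the sources used here, and its log2 fold changes (unjoined over heterochronic) are shrunken. Jun was at 1.63 and Klf6 at 1.64 in the authors' deposited table, so both were higher in unjoined HSC. Hist1h4d was at -1.21 and Hist1h2bl at -1.26 in the authors' deposited table, and both were thus higher in heterochronic HSC. Of the 16 genes that fell, 8 had an adjusted p under 0.05 in the authors' deposited table and 8 did not, Fos (0.0833), Egr1 (0.199) and Btg2 (0.514) among the latter. Of the 4 that rose, 3 passed in the authors' deposited table. All 20 had the same direction there.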

How the data were processed

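RNA of flow-sorted HSC was extracted with a PicoPure kit and made into low-input libraries (Nugen Ovation Trio), per the labels' protocols. Salmon, DESeq2, FastQC, MultiQC and the build GRCm38 are named, without versions, in the submitters' processing notes. The authors deposited estimated counts per gene, already whole, for 17562 genes, and a table of log2 fold changes (shrunken), their errors and p-values with adjusted p-values. Whether reads were counted by strand is not given in the sources used here. Of 30 columns, 1 whose code is in no title was not used.

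Counts were tested with edgeR 4.0.16 in R 4.3.3 (robust quasi-likelihood fit, TMM, filterByExpr) on the 7 libraries, with 5 residual degrees of freedom, and p-values were adjusted over all genes tested (Benjamini-Hochberg). Comparisons with OISOB6 used 1 fit of 15 B6 libraries. A gene was called at an adjusted p under 0.05. An SE is the log2 fold change over the root of F. Levels are CPM with TMM factors of the 15 libraries. The series text calls the samples biological replicates without naming animals or pools, and p-values cover the spread between these samples. Fits were tested on simulated data. DESeq2 1.42.0, limma 3.58.1 and other settings were tried as alternatives. Symbols and coordinates came from GENCODE for 17547 genes, and promoters from RefSeq.

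Members and gene lists were chosen with earlier results of these data known. By rule, the text names up to 15 called genes per direction (mean log2 CPM 1 or more), filled to 10 by the smallest p, up to 5 genes per list, and 12 set genes. Junb, Myc, Fosl2, Hist1h1c, Hist1h2bc, Tyms, Flt3, Tent5a, Ect2, Mcl1, Ext2, Ccn1, Kdr, Cdh5 and Cd79b fall outside it and were chosen after their values were seen.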

Additional observations from a re-analysis of the deposited data

Results flagged for a closer look

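Dixon's ratio was computed for 92 sets of values (named genes in OHETB6, and 10 list sums in OHETB6 and in OISOB6), and 10 had an extreme library far from the rest of its group. The values here were CPM, not log2 CPM as for the shares of all genes tested. Chance alone gives about 5% where values are normally distributed, which was not tested for CPM, so the count is not set against that rate. In OHETB6 4, Mapk12 was at 992 CPM (others 3.78 to 12.8 CPM), S100a9 at 139 CPM (0.630 to 9.76 CPM), S100a8 at 109 CPM (0.473 to 9.41 CPM) and Hist1h2bf at 39.9 CPM (10.8 to 14.3 CPM), and the myeloid progenitor and granule list summed to 1086 CPM (363 to 485 CPM). OHETB6 3 was low in Kif11, a mitotic kinesin, at 121 CPM (297 to 303 CPM). OHETB6 1, whose labels conflict, was low in Hlf at 621 CPM (1090 to 1126 CPM). OISOB6 4 was low in the genes higher in old stem cells, at 4953 CPM (6217 to 6397 CPM), and high in the genes lower in old stem cells, at 553 CPM (350 to 408 CPM), and in mitosis genes, at 5107 CPM (3292 to 3779 CPM).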

How the results depend on the processing

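No paired analysis was possible because the labels give no replicate numbers and give no record of which mice formed a pair.

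For OHETB6 minus OB6CNT, the 20 calls became 159 with DESeq2 (108 rises, 51 falls), 63 with limma-voom and quality weights, 54 when the B6 libraries of 4 groups shared 1 fit, 9 with a minimum of 1.5-fold and 6 in the libraries whose labels meet. Leaving out 1 library gave 6 to 30 calls: 12 without OHETB6 1, 30 without OHETB6 3, 9 without OB6CNT 1 and 6 without OB6CNT 2 or 3. All 20 called genes kept their sign in the 15 alternatives, and 4 (Jun, Klf4, Klf6 and Zfp36) stayed past the threshold in each. The medians of the immediate early, histone and mitosis lists, added after seeing the data, moved by less than the spread between libraries. RLE size factors, no filter and columns matched by description gave 15 to 21 calls. By description, OHETB6 takes in the column titled YBJCNT 2, at levels of young BoyJ (778 CPM of Ctse, 25.2 CPM of Selp). Matching by description in the comparisons with OISOB6 was also added after seeing the data, and gave 21 calls for OISOB6 minus OB6CNT.

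For OHETB6 minus OISOB6, the 1 call became 38 with DESeq2 (16 rises, 22 falls) and 0 in the libraries whose labels meet or with columns matched by description, and 0 to 5 with 1 library left out (0 without OHETB6 2 or 4 or OISOB6 1, 2, 3 or 4). For OISOB6 minus OB6CNT, the 18 calls became 85 with DESeq2 and 10 in the libraries whose labels meet, and 2 to 21 with 1 library left out (9 without OISOB6 4, and 2, 10 and 8 without OB6CNT 1, 2 and 3). The cause of these moves was not tested.

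Signs turned for some genes that were not called: Kit (0.0064 where labels meet, 0.073 by description), Selp (-0.23 by description), Mapk12 (-0.23 to 4.94 with 1 library left out, negative without OHETB6 4) and Hist1h1c (0.051 by description, 0.047 with limma-voom, and -0.16 to 0.14 with 1 library left out). Columns matched by description put the column titled YBJCNT 2, at 25.2 CPM of Selp, into OHETB6. Its part in the turned signs was not tested. Depth limits genes such as Atf3, at most 0.117 CPM in OHETB6, and the counting error there is large.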
